A study of Arabidopsis thaliana with 12 samples.

Results

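The genes described here are the 26 nuclear Arabidopsis thaliana genes whose transcripts were lower after Zeocin in both genotypes of the series, out of 34262 features in the count tables and 32548 with nuclear ids (AT1G to AT5G). They were chosen by measured values. A gene entered when its mean level in the mock libraries was at least 5 CPM in both genotypes, which 14571 genes met. Its Zeocin mean also had to be at most 0.7 of the mock mean in both genotypes, which left 30 genes. The last condition was that all 3 Zeocin libraries lay below all 3 mock libraries in each genotype, which left 27. CPM here are counts scaled to a common total over the nuclear ids of a library. Of 3 genes that the rule leaves out by name, AT5G19890 met all conditions, while ADH1 and CYP79F2 did not.

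The study sequenced total RNA of whole seedlings in 4 groups of 3 libraries: the pot1b mutant with Zeocin, pot1b with mock treatment, the wild type Col-0 (WT) with Zeocin, and WT with mock treatment. Seedlings were 6 days old, grown on MS medium, and kept for 6 h with 20 µM Zeocin or without it. Zeocin, a bleomycin-type drug, breaks DNA strands, and POT1b belongs to the POT1 family of telomere proteins. The labels name neither the pot1b allele nor separate cultures for the replicates. The p-values therefore reflect the spread among these libraries alone, which may be technical.

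The libraries held 9607269 to 24587168 counts, with 53.01% to 58.45% on chloroplast genes and 3961261 to 10490315 counts on nuclear ids. The members had 11 to 3243 counts each per library. The gene mutated in pot1b, named AtPOT1b in the annotation, had 3.99, 1.70 and 10.3 CPM in pot1b Zeocin, 3.35, 2.52 and 6.53 in pot1b mock, 8.18, 8.20 and 13.2 in WT Zeocin and 7.53, 7.07 and 7.65 in WT mock, from 8 to 100 counts. It overlaps a neighbouring gene. In replicate 3 of pot1b Zeocin its level lay within the WT range, and in replicate 3 of pot1b mock just under it, so that this gene does not check the labels of those libraries. One other gene, PYK10, a beta-glucosidase of roots, had 1491.4 to 1652.8 CPM in the 6 pot1b libraries, these included, and 871.3 to 962.5 CPM in the 6 WT libraries. It was singled out after its values were seen and is a difference between the genotypes in these libraries, not a check of the mutated gene. WT Zeocin replicate 1 stood apart: its counts differed from those of its replicates by a chi-square of 25.77 and 23.9 per degree of freedom, against 3.49 to 10.42 for the other pairs within a group. Calls that are lost without these libraries are named beside their results.

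Plants that sense broken DNA through the kinase ATM and the transcription factor SOG1 are known mainly for the genes they switch on, for repair and for stopping the cell cycle. The genes here went the other way. Jasmonate is the hormone of wounding and insect attack and induces many secreted defence proteins, while abscisic acid builds up in dry tissue and induces genes such as RD22. For the description, the members were sorted by known role, with their values in view, into 5 defence peptides and proteins, 4 cell wall genes, 7 genes of hormone and defence metabolism, 3 genes of water deficit and darkness, and 7 with other or unknown roles. This sorting was not tested for enrichment, and the annotation of AT5G16980 and AT2G29340, in the hormone and defence group, names no such role.

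Zeocin left the members at 31.1% to 69.3% of their mock mean in pot1b and at 33.8% to 68.8% in WT. These values chose the genes and are given as a description only. The median Zeocin to mock ratio of the members was 0.598 in pot1b and 0.614 in WT, while the median of all genes at the mock minimum was 1.03 in pot1b and 1.02 in WT. In whole seedlings, fewer cells of a type and less RNA per cell cannot be told apart. The members that stood lowest were AT5G10580, AT1G30760 and AT4G35720, the only members at or below 50% in both genotypes. In AT5G10580, which encodes a protein of unknown function, the Zeocin libraries had 5.32, 5.93 and 4.94 CPM in pot1b, against 20.6, 18.5 and 12.9 CPM in mock. Its WT libraries had 8.88, 6.56 and 6.05 CPM under Zeocin and 17.9, 17.7 and 16.6 CPM under mock. The lowest mock library of AT5G10580 was still above every Zeocin library of either genotype.

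**Figure D1:**
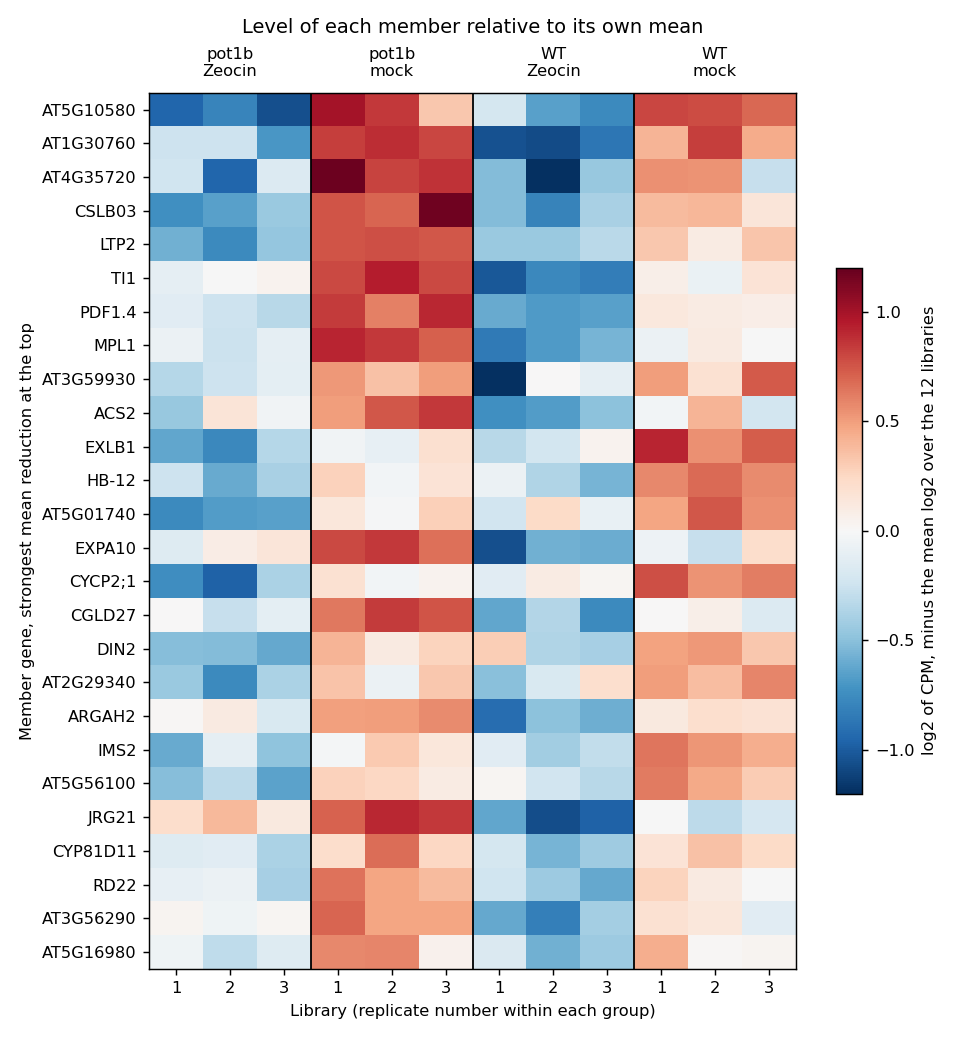
Heat map of the 26 members (rows, lowest mean ratio at the top) in the 12 libraries (columns, by group), coloured by log2 CPM minus the mean of that gene over all libraries. Within each genotype the Zeocin columns are below the mock columns in every row, as the rule requires. The rows differ in whether pot1b or WT is higher.

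The conditions were narrow ones. The ratio was met in pot1b by 212 genes and in WT by 156, each without regard to the other genotype, against 30 in both. With groups that do not overlap added, 201 of the 14571 genes (1.38%) met the conditions on Zeocin in pot1b, and 138 (0.947%) in WT. A mirror-image rule for genes raised by Zeocin, with the minimum set on the Zeocin mean, gave 323 genes. Just inside the threshold, the larger of the ratios was 0.688 for CGLD27, 0.689 for ARGAH2 and 0.693 for IMS2. Just outside it were NSP5 at 0.701, RD28 at 0.701 and AT3G21330 at 0.705. The 3 genes that met the ratios while their groups overlapped, AT1G49310, AT1G65510 and AT5G38980, encode uncharacterised proteins. Leaving out each library in turn gave 26 to 36 genes by the same rule, of which 23 to 26 were members, and 14 members met it whichever library was left out. Without WT Zeocin replicate 1 the rule gave 36 genes, with 25 of the members, and AT2G29340 was the member that dropped out. Without both pot1b libraries numbered 3 it gave 26 genes, of which 23 were members.

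In the edgeR fit over all 19596 genes tested, which used the same libraries as the rule, the members had a median log2 change with Zeocin of -0.80 in pot1b and -0.75 in WT. The median of all genes tested was 0.00 in both. At an adjusted p under 0.05, 23 of the 26 members were called lower in pot1b, where 3.0% of all genes were called lower, and 23 in WT, where 2.65% were. Nothing is read from these counts, since the rule used the contrast. AT3G59930 and AT5G16980 were called in neither genotype, AT3G56290 was not called in pot1b, and CGLD27 was not called in WT.

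**Figure D2:**
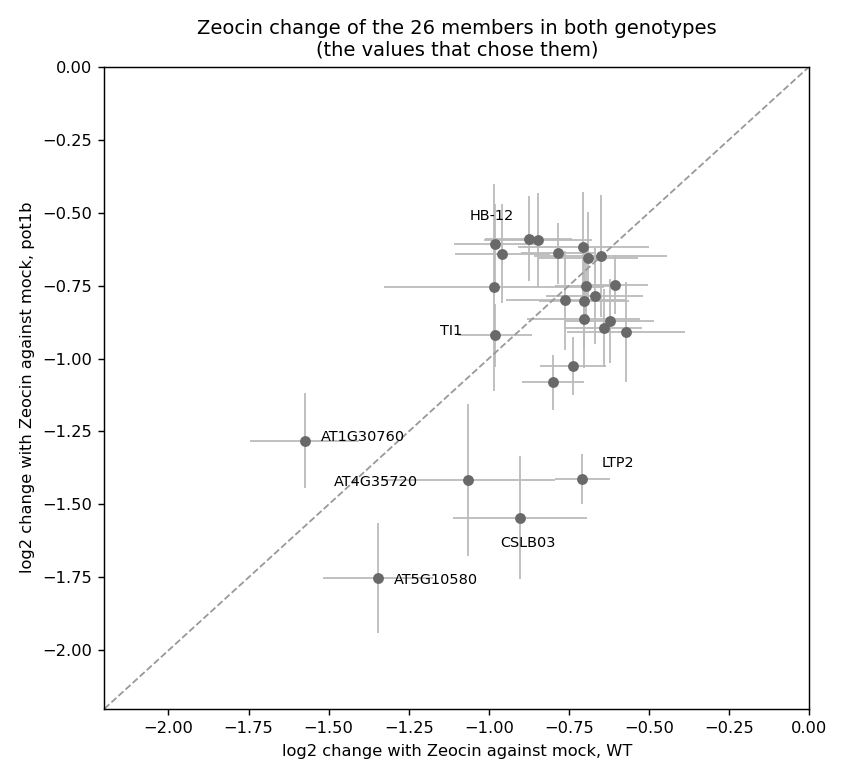
Log2 change with Zeocin in WT (horizontal axis) and in pot1b (vertical axis) for the 26 members, with standard errors of the edgeR fit over 3 libraries per group and a diagonal of equal change. All members lie below 0 on both axes by the rule, and LTP2, at -1.41 in pot1b and -0.71 in WT, lies farthest below the diagonal.

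The question that the rule did not use is whether the members stood at different levels in the genotypes. In untreated seedlings they did: 12 of the 26 members were higher in pot1b than in WT and 4 were lower (edgeR, adjusted p under 0.05). Over all genes tested, 7.25% were called higher and 5.83% lower. Among genes at the mock minimum these shares were 8.07% and 6.93%. Neither background was matched to the members on the other conditions of the rule, which used the same libraries. The median log2 difference of the members, pot1b over WT under mock, was 0.37, while that of all genes tested was 0.01. All 3 pot1b mock libraries lay above all 3 WT mock libraries for 13 members and below them for 7, against 15.1% and 23.8% of the genes at the mock minimum. The count of lower members was 1 without pot1b mock replicate 2, and 2 without WT mock replicate 1, 2 or 3 in turn. Without both pot1b libraries numbered 3, 9 members were higher and 3 lower, and without WT Zeocin replicate 1, 12 were higher and 6 lower. DESeq2 called 9 members higher and 2 lower.

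Under Zeocin fewer members differed between the genotypes: 7 were called higher in pot1b than in WT and 2 lower, where 6.55% and 4.51% of all genes were called. The median log2 difference of the members was 0.24, and 0.01 for all genes. The pot1b Zeocin libraries lay wholly above the WT Zeocin ones for 10 members and wholly below them for 6, against 12.2% and 16.5% of the genes at the mock minimum. The count of lower members was 1 without pot1b Zeocin replicate 1 or 2 or WT Zeocin replicate 2, and 4 without WT Zeocin replicate 3. Without both pot1b libraries numbered 3, again 7 were higher and 2 lower, and without WT Zeocin replicate 1, 5 were higher and 3 lower. Both comparisons can be set side by side: TI1, PDF1.4, MPL1, EXPA10 and JRG21 were called higher in pot1b under both treatments, and AT5G01740 and CYCP2;1 lower under both. A further 9 members were called under mock alone and 2 under Zeocin alone, which by itself does not show that the difference changed with treatment. No member was called in opposite directions, and 8 were called under neither treatment. These 8 were AT5G10580, AT3G59930, DIN2, AT2G29340, IMS2, AT5G56100, CYP81D11 and AT5G16980.

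That change was tested as the interaction, the log2 change with Zeocin in pot1b less the one in WT. It was called for 1 member, LTP2, lower, and for 0 members higher, with 3 members at an unadjusted p under 0.05. Of all genes, 0.373% were called lower and 0.378% higher. The rule asks for a decrease in both genotypes and so narrows the interaction, but favours neither sign. LTP2 was also the only member called by DESeq2 and by limma-voom.

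**Figure D3:**
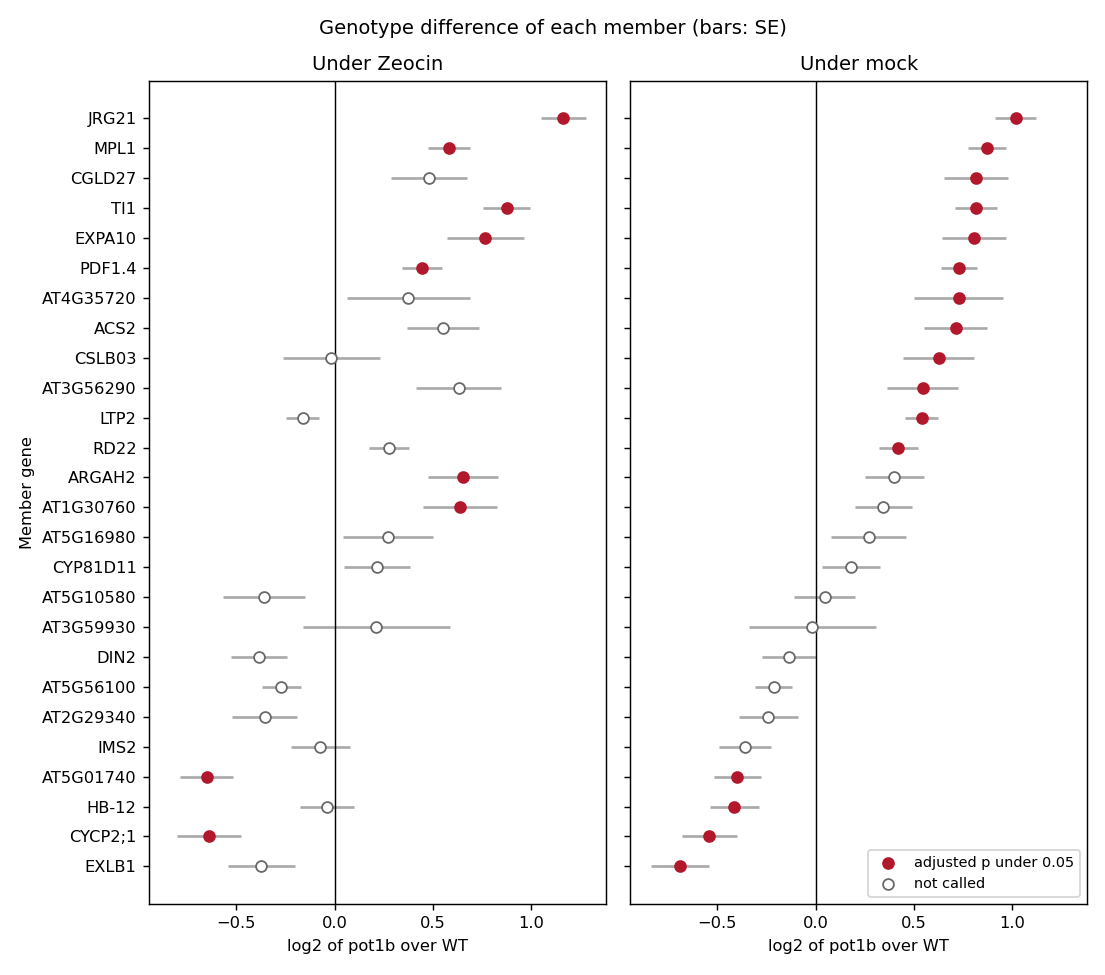
Log2 difference between pot1b and WT (horizontal axis) for each member (rows), under Zeocin in the left panel and under mock in the right, with standard errors of the edgeR fit and 3 libraries per group. Filled points have an adjusted p under 0.05, and JRG21 is farthest to the right in both panels, at 1.16 under Zeocin and 1.02 under mock.

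Summed over all members, the level was 711.6 ± 9.5 CPM in pot1b Zeocin, 1347.6 ± 36.3 CPM in pot1b mock, 717.3 ± 47.1 CPM in WT Zeocin and 1142.6 ± 41.5 CPM in WT mock (SD, n = 3 each). Under mock all 3 pot1b libraries lay above all 3 WT libraries, and an exact two-sided permutation test gave p = 0.1, the smallest that 3 libraries against 3 allow. Under Zeocin the genotypes overlapped (exact permutation p = 1.0). Without replicate 1 the mean of WT Zeocin was 690.1 CPM, and its remaining libraries, at 688.1 and 692.1 CPM, lay below those of pot1b Zeocin, at 701.5 to 720.3 CPM. Without both pot1b libraries numbered 3 the means were 716.6 CPM in pot1b Zeocin and 1357.7 CPM in pot1b mock, and the median log2 difference of the members between the genotypes was 0.40 under mock and 0.26 under Zeocin. Without WT Zeocin replicate 1 these medians were 0.36 under mock and 0.31 under Zeocin. LTP2, DIN2 and RD22 made up 48.6% to 58.7% of the sum, so that it mainly follows these genes.

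The defence group holds 5 members, which are small secreted peptides or act against insects and microbes. Under mock 4 of the 5 were higher in pot1b than in WT, and under Zeocin 3 were, with none lower. Of all genes, 7.25% were higher and 5.83% lower under mock, and 6.55% higher and 4.51% lower under Zeocin. These member counts were the same without both pot1b libraries numbered 3 and without WT Zeocin replicate 1. The summed level of the 5 was 250.6 ± 17.4 CPM in pot1b Zeocin, 573.9 ± 4.5 CPM in pot1b mock, 240.3 ± 14.6 CPM in WT Zeocin and 390.1 ± 27.3 CPM in WT mock (SD, n = 3 each). LTP2 alone had means of 146.9, 375.6, 168.5 and 265.4 CPM in the same order, so that the sum mainly follows LTP2. Under Zeocin LTP2 was not among the 3 called higher in pot1b, and the near-equal sums do not describe those 3.

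LTP2 (AT2G38530) encodes a lipid transfer protein, a small secreted protein that binds lipids at the cell surface. Per kilobase of exon it was the most abundant member in every group, with means of 132 CPM per kb in pot1b Zeocin, 337 in pot1b mock, 151 in WT Zeocin and 238 in WT mock. By library, it had 149, 131 and 161 CPM in pot1b Zeocin, against 375, 379.8 and 372 CPM in pot1b mock. In WT the values were 164, 164 and 178 CPM under Zeocin and 277, 238 and 281 CPM under mock. The genotypes did not overlap under mock, where pot1b was higher, and did not overlap under Zeocin, where all pot1b libraries lay below the WT ones. The log2 difference between pot1b and WT was 0.54 (SE 0.08) under mock (edgeR adjusted p = 9.1e-05) and -0.16 (SE 0.09) under Zeocin (edgeR adjusted p = 0.25). The interaction, the Zeocin change in pot1b less the one in WT, was -0.70 (SE 0.12) on the log2 scale (edgeR adjusted p = 0.0046). Leaving out single libraries moved this difference between -0.77 and -0.63, with adjusted p up to 0.022, and leaving out both pot1b libraries numbered 3 gave -0.79 (edgeR adjusted p = 0.018).

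MPL1 (AT5G14180), a lipase known for limiting the aphid Myzus persicae, had 37.4, 32.8 and 36.4 CPM in pot1b Zeocin, against 73.8, 70.6 and 64.3 CPM in pot1b mock. In WT it had 21.8, 24.5 and 26.6 CPM under Zeocin and 37.3, 42.2 and 38.9 CPM under mock. All pot1b libraries were above all WT libraries within each treatment, and the pot1b Zeocin libraries lay near the WT mock ones. The log2 difference between the genotypes was 0.87 (SE 0.10) under mock and 0.58 (SE 0.10) under Zeocin (edgeR adjusted p = 1.2e-06 and 7.7e-04).

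TI1 (AT2G43510), a trypsin inhibitor, showed the same order. The pot1b libraries had 23.3, 25 and 25.8 CPM under Zeocin and 43.2, 48.2 and 43.4 CPM under mock, and the WT libraries 12.4, 14.6 and 14.1 CPM under Zeocin and 26.2, 23.7 and 28.1 CPM under mock. The difference between pot1b and WT was 0.81 (SE 0.10) under mock and 0.88 (SE 0.12) under Zeocin on the log2 scale (edgeR adjusted p = 9.0e-06 and 2.9e-05). For PDF1.4 (AT1G19610), a defensin-like peptide, the pot1b libraries had 34.7, 32.0 and 30.2 CPM under Zeocin and 68.0, 58.1 and 71.2 CPM under mock. Its WT libraries had 25.1, 23.8 and 24.2 CPM under Zeocin and 41.7, 40.6 and 40.3 CPM under mock, below those of pot1b in each treatment. The log2 difference was 0.73 under mock and 0.45 under Zeocin (edgeR adjusted p = 6.5e-06 and 0.0056).

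The remaining gene of this group, the defensin-like AT3G59930, did not differ detectably between genotypes and rests on uneven libraries. It had 10.3, 11.0 and 12.1 CPM in pot1b Zeocin and 18.7, 16.7 and 18.6 CPM in pot1b mock, and 3.31, 13.1 and 12.1 CPM in WT Zeocin and 18.6, 14.9 and 21.8 CPM in WT mock. The low value belongs to WT Zeocin replicate 1, without which its WT ratio was 0.684 in place of 0.516. Of the 50-base stretches of its exons in TAIR10.1, 22.17% occur elsewhere in the genome, so that its counts are uncertain.

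**Figure D4:**
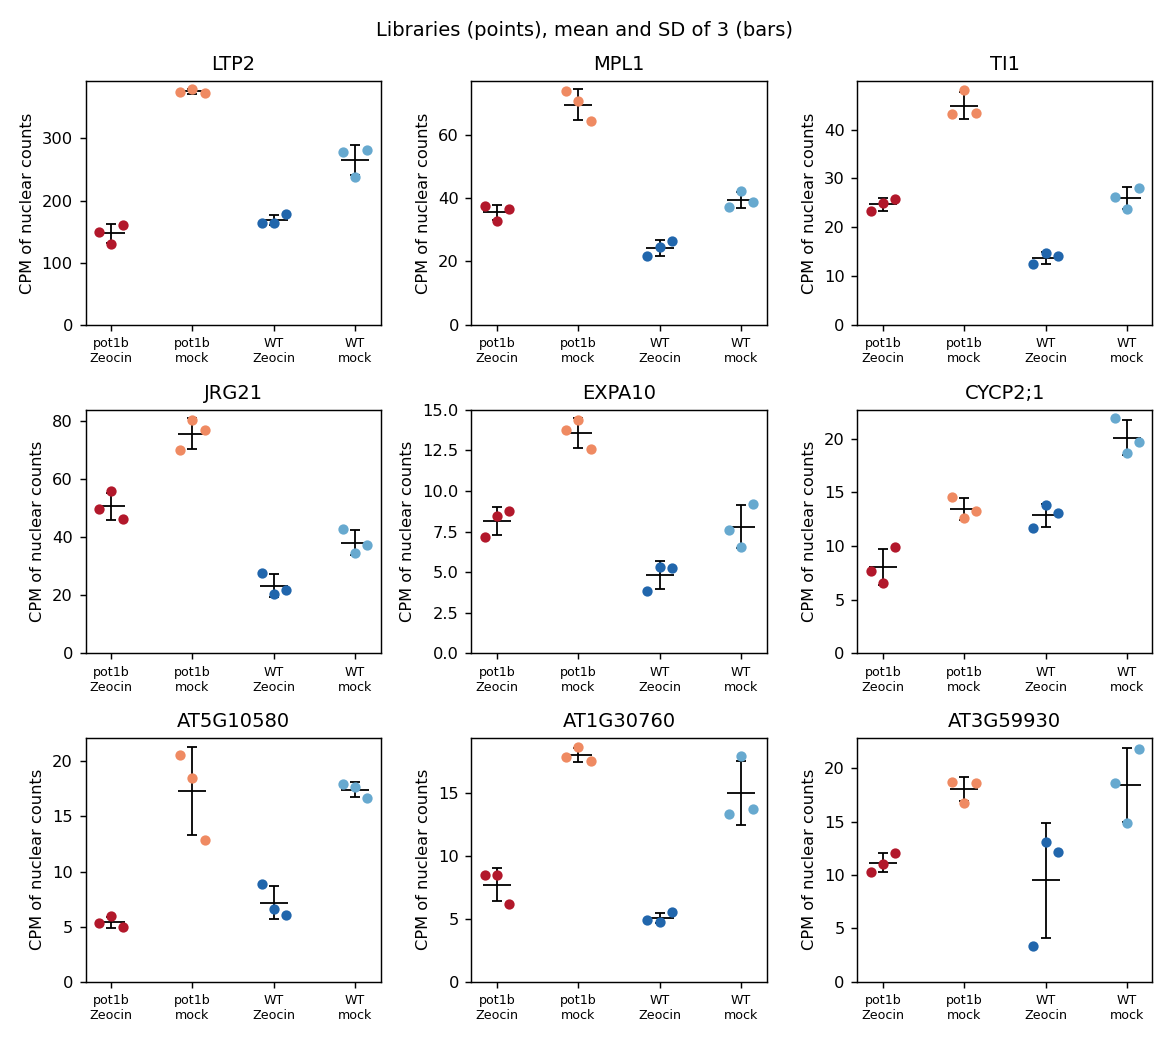
Levels in CPM per library (points) and group means (bars) of 9 members, with the groups from left to right as pot1b Zeocin, pot1b mock, WT Zeocin and WT mock. In MPL1, TI1, JRG21 and EXPA10 the pot1b groups sit above the WT groups of the same treatment, in CYCP2;1 below them, and in LTP2 above them under mock only.

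The cell wall group holds 4 members. EXPA10 (AT1G26770) is an expansin, a wall-loosening protein, and had 7.15, 8.48 and 8.79 CPM in pot1b Zeocin, against 13.8, 14.4 and 12.6 CPM in pot1b mock. In WT it had 3.83, 5.33 and 5.27 CPM under Zeocin and 7.63, 6.56 and 9.22 CPM under mock. Its log2 difference between pot1b and WT was 0.81 (SE 0.16) under mock and 0.77 (SE 0.20) under Zeocin (edgeR adjusted p = 0.0015 and 0.013). Under Zeocin the call was lost without pot1b Zeocin replicate 3 (edgeR adjusted p = 0.055) and without both pot1b libraries numbered 3 (edgeR adjusted p = 0.074). EXLB1 (AT4G17030), an expansin-like gene, went the other way under mock.

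EXLB1 had 7.98, 7.20 and 9.70 CPM in pot1b Zeocin and 11.9, 11.5 and 14.1 CPM in pot1b mock, and 9.75, 10.5 and 12.6 CPM in WT Zeocin and 23.1, 17.9 and 20.4 CPM in WT mock. All pot1b mock libraries lay below all WT mock libraries, a log2 difference of -0.69 (SE 0.15) (edgeR adjusted p = 0.0024). Under Zeocin the log2 difference was -0.37 and was not called (edgeR adjusted p = 0.18).

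CSLB03 (AT2G32530), a cellulose synthase-like gene, had 2.99, 3.18 and 3.66 CPM in pot1b Zeocin and 8.44, 8.09 and 11.2 CPM in pot1b mock. Its WT libraries had 3.48, 2.87 and 3.82 CPM under Zeocin and 6.48, 6.56 and 5.51 CPM under mock, so that the genotypes were apart under mock and overlapped under Zeocin. The mock difference was 0.62 (SE 0.18) on the log2 scale (edgeR adjusted p = 0.023), a call that was lost without pot1b mock replicate 3, without WT mock replicate 1 or 3, and without both pot1b libraries numbered 3 (edgeR adjusted p = 0.15). DESeq2 did not call this CSLB03 difference. AT1G30760 encodes a berberine-bridge-type FAD oxidase, a family with members that oxidise wall-derived sugars and lignin precursors.

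The levels of AT1G30760 were 8.48, 8.48 and 6.22 CPM in pot1b Zeocin, against 17.9, 18.7 and 17.6 CPM in pot1b mock. In WT they were 4.87, 4.78 and 5.53 CPM under Zeocin and 13.3, 17.9 and 13.7 CPM under mock, the lowest WT ratio among the members, at 33.8% of the mock mean. It was called higher in pot1b under Zeocin alone, with a log2 difference of 0.64 (SE 0.19) (edgeR adjusted p = 0.032). That call was lost without pot1b Zeocin replicate 1 or 2, without WT Zeocin replicate 1 or 2, and in DESeq2 and limma-voom. Adjusted p was up to 0.14 over these edgeR, DESeq2 and limma-voom fits.

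Hormone and defence metabolism takes in 7 members, of which 2 were higher in pot1b under mock, 2 under Zeocin and none lower, beside 7.25% of all genes higher and 5.83% lower under mock and 6.55% and 4.51% under Zeocin. Without WT Zeocin replicate 1, 2 were higher and 1 lower under mock, and 1 higher and 1 lower under Zeocin. JRG21 (AT3G55970), a dioxygenase of the 2-oxoglutarate type and a known jasmonate-regulated gene, had the largest genotype difference of all members. It had 49.5, 55.7 and 46.3 CPM in pot1b Zeocin, against 69.9, 80.2 and 76.7 CPM in pot1b mock. In WT it had 27.7, 20.4 and 21.7 CPM under Zeocin and 42.6, 34.3 and 37.2 CPM under mock. Every pot1b Zeocin library was above every WT mock library. The log2 difference between pot1b and WT was 1.02 (SE 0.11) under mock and 1.16 (SE 0.11) under Zeocin (edgeR adjusted p = 5.3e-07 and 3.2e-07), and the interaction was 0.14 (SE 0.15), not called (edgeR adjusted p = 0.82).

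ACS2 (AT1G01480) makes the precursor of ethylene. It had 10.1, 15.5 and 13.5 CPM in pot1b Zeocin and 19.8, 23.4 and 25.1 CPM in pot1b mock, and 8.36, 8.74 and 9.87 CPM in WT Zeocin and 13.6, 18.4 and 11.9 CPM in WT mock. It was higher in pot1b under mock by 0.71 (SE 0.16) on the log2 scale (edgeR adjusted p = 0.0041), and the difference under Zeocin, 0.55, was not called (edgeR adjusted p = 0.056). ARGAH2 (AT4G08870) is an arginase that methyl jasmonate induces. Its levels were 7.98, 8.48 and 6.96 CPM in pot1b Zeocin and 11.1, 11.1 and 11.7 CPM in pot1b mock, and 4.18, 5.60 and 5.27 CPM in WT Zeocin and 8.58, 9.09 and 8.88 CPM in WT mock. All pot1b libraries were above all WT libraries within each treatment, but only the difference under Zeocin, 0.65 (SE 0.18), was called (edgeR adjusted p = 0.021). The call was lost without pot1b Zeocin replicate 1 or 2, without WT Zeocin replicate 1, and in DESeq2.

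The others of this group were not called between genotypes. IMS2 (AT5G23020), which extends the methionine chain for aliphatic glucosinolates, had means of 12.8 CPM in pot1b Zeocin, 18.4 in pot1b mock, 13.7 in WT Zeocin and 24.2 in WT mock. CYP81D11 (AT3G28740), a cytochrome P450 known to respond to cis-jasmone, had 10.2, 15.6, 9.05 and 14.1 CPM in the same order. It overlaps AT3G28730, so that its counts are uncertain. AT5G16980, a zinc-binding dehydrogenase, and AT2G29340, a dehydrogenase of the epimerase type, stood at 66.4% and 60.3% of the mock mean in pot1b and at 67.9% and 64.9% in WT. Without WT Zeocin replicate 1 the WT ratio of AT2G29340 was 0.722, outside the rule. The annotation of AT5G16980 and AT2G29340 names no role in hormones or defence.

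Water deficit and darkness take in 3 members. RD22 (AT5G25610), a BURP-domain protein induced by dehydration through abscisic acid, had 103, 105 and 83.3 CPM in pot1b Zeocin, against 173, 153 and 143 CPM in pot1b mock. In WT it had 93.0, 81.4 and 71.9 CPM under Zeocin and 132, 118 and 109.7 CPM under mock. It was higher in pot1b under mock by 0.42 (SE 0.10) on the log2 scale (edgeR adjusted p = 0.0061), and under Zeocin the genotypes overlapped. HB-12 (AT3G61890), a homeodomain-leucine zipper factor of the water-deficit response, was lower in pot1b under mock.

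The libraries of HB-12 had 16.6, 12.9 and 15.0 CPM in pot1b Zeocin and 23.9, 19.2 and 22.1 CPM in pot1b mock, and 18.8, 15.3 and 13.4 CPM in WT Zeocin and 29.5, 31.6 and 29.2 CPM in WT mock. The mock difference was -0.41 (SE 0.12) on the log2 scale (edgeR adjusted p = 0.028), a call that was lost in 5 of the 6 fits that left out a mock library, with adjusted p up to 0.14, and without both pot1b libraries numbered 3 (edgeR adjusted p = 0.088). DESeq2 did not call this HB-12 difference. DIN2 (AT3G60140), a beta-glucosidase of dark-treated leaves, was not called between genotypes. It had 112, 111 and 105 CPM in pot1b Zeocin and 212, 172 and 193 CPM in pot1b mock, and 197, 125 and 122 CPM in WT Zeocin and 224, 229 and 201 CPM in WT mock. The high Zeocin value is that of WT Zeocin replicate 1, without which its WT ratio was 0.565 in place of 0.677.

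The other 7 members have roles that are less well known, and they split between the genotypes. CYCP2;1 (AT3G21870) is a cyclin of the P type, linked to division in root meristems, and was lower in pot1b under both treatments. It had 7.65, 6.57 and 9.89 CPM in pot1b Zeocin and 14.6, 12.6 and 13.2 CPM in pot1b mock, and 11.7, 13.8 and 13.0 CPM in WT Zeocin and 21.9, 18.7 and 19.7 CPM in WT mock. The log2 difference between pot1b and WT was -0.54 (SE 0.14) under mock and -0.64 (SE 0.16) under Zeocin (edgeR adjusted p = 0.011 and 0.012). The mock call was lost without pot1b mock replicate 2 or WT mock replicate 1, and the Zeocin call without pot1b Zeocin replicate 1 or 2 or WT Zeocin replicate 2.

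AT5G01740, of the nuclear transport factor 2 family, was also lower in pot1b. It had 16.5, 17.6 and 17.8 CPM in pot1b Zeocin and 30.8, 27.7 and 34.0 CPM in pot1b mock, and 23.9, 32.8 and 26.2 CPM in WT Zeocin and 38.9, 46.7 and 40.8 CPM in WT mock. The log2 difference was -0.40 (SE 0.12) under mock and -0.65 (SE 0.13) under Zeocin (edgeR adjusted p = 0.03 and 0.0022). The mock call was lost without pot1b mock replicate 1 or 2, without WT mock replicate 2 or 3, and in DESeq2.

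CGLD27 (AT5G67370), named for its conservation in green plants and diatoms, was higher in pot1b under mock. It had 6.98, 5.72 and 6.41 CPM in pot1b Zeocin and 10.8, 12.4 and 11.7 CPM in pot1b mock, and 4.53, 5.47 and 4.08 CPM in WT Zeocin and 6.96, 7.32 and 6.19 CPM in WT mock. The mock difference was 0.82 (SE 0.16) on the log2 scale (edgeR adjusted p = 0.0012). AT4G35720, with a domain of unknown function, and AT3G56290, annotated as a potassium transporter, were also called higher under mock, by 0.73 (SE 0.23) and 0.54 (SE 0.18) (edgeR adjusted p = 0.035 and 0.048). Both sit near the lower end of the levels, and their calls were lost in most fits that left out a mock library, and without both pot1b libraries numbered 3 (edgeR adjusted p = 0.072 for AT4G35720 and 0.087 for AT3G56290). The call of AT3G56290 was also lost without each of the pot1b Zeocin libraries in turn and without WT Zeocin replicate 2. It was lost with no filter on low counts as well. DESeq2 called neither AT4G35720 nor AT3G56290 under mock.

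AT5G56100, annotated as a glycine-rich protein or oleosin, had 51.2, 58.7 and 46.5 CPM in pot1b Zeocin and 88.0, 86.3 and 78.1 CPM in pot1b mock. Its WT libraries had 73.8, 62.0 and 57.8 CPM under Zeocin and 112, 99.5 and 90.1 CPM under mock. The genotypes overlapped under Zeocin and were apart under mock, where the log2 difference of -0.21 was not called (edgeR adjusted p = 0.16). AT5G56100 and AT5G10580 each overlap another gene, and their counts are uncertain since the strand setting of the counting is not given in the sources used here.

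The members lie on all 5 chromosomes, 4 on chromosome 1, 4 on 2, 7 on 3, 3 on 4 and 8 on 5, and no member is the next protein-coding gene to another. Their sequence context was read from the 250 bases before the annotated start of each gene in RefSeq's TAIR10.1, while the counts were made on TAIR10 per the submitters' processing notes. Genes were matched by id, and all 26 members and 27443 genes in all had a window. The windows shown belong to LTP2, with the called interaction, to JRG21, with the largest genotype difference, and to RD22, the drought gene. Each is 5′ to 3′ on the strand of its gene, and capitals mark the letters ACGTG or their reverse complement CACGT, the core of the element through which abscisic acid and G-box factors are known to act. The LTP2 window is chr2:16127926-16128175 on the plus strand, that of JRG21 chr3:20769411-20769660 on the minus strand, and that of RD22 chr5:8916857-8917106 on the minus strand.
LTP2: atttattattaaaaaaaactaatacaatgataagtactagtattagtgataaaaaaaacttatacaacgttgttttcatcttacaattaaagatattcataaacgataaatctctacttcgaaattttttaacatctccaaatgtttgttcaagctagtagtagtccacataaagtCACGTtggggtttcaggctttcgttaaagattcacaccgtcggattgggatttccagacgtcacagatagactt
JRG21: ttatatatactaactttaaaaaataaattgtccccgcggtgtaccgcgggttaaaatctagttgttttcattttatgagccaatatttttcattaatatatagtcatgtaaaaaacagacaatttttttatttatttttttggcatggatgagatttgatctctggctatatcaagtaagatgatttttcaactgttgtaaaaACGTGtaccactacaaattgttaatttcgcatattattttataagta
RD22: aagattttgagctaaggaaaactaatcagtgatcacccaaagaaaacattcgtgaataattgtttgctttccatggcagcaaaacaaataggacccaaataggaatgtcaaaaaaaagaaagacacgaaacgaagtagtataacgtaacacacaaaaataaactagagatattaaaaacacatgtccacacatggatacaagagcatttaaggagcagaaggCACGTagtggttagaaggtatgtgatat
Searched on both strands, ACGTG occurred in the windows of 9 of 26 members (34.6%), against 22.9% of all windows. Besides these 3 genes, they were MPL1, CYCP2;1, AT2G29340, ARGAH2, CYP81D11 and AT5G16980. The window of AT5G16980 overlaps another annotated gene. The 6-letter G-box CACGTG, which contains ACGTG, was in 7.7% of the members' windows, those of CYCP2;1 and CYP81D11, and in 6.5% of all. None of the windows shown holds it, and a match to ACGTG alone does not show a full element. The palindrome of the kind that SOG1 is known to bind was in those of LTP2, PDF1.4 and HB-12, which is 11.5% against 9.7% of all. AACGG, the core of the element of mitotic genes, was in 7.7% of the members' windows and 20.6% of all, and TTGAC, the W-box bound by WRKY factors, in 38.5% and 44.9%. The telo-box AAACCCTAA and the evening element AAAATATCT were in none of the members' windows and in 2.6% and 2.4% of all. These matches are descriptions of the letters in these windows.

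Genes beside the members give a comparison that the rule did not use. Of the 52 protein-coding genes next to a member, none is a member and 34 were tested. With Zeocin 3 of them were lower and 2 higher in pot1b, and 5 were lower and 2 higher in WT, with median log2 changes of -0.01 in pot1b and 0.00 in WT. Of all genes, 3.0% were lower and 3.7% higher in pot1b, and 2.65% lower and 3.34% higher in WT. Between the genotypes, 7 of the 34 were higher in pot1b and 0 lower under mock, where 7.25% and 5.83% of all genes were, and 6 were higher and 2 lower under Zeocin, where 6.55% and 4.51% were. Their median log2 difference was 0.06 under mock and 0.03 under Zeocin. All of those lower with Zeocin in pot1b, and 3 of 5 in WT, were copies from the member's own family. Such copies also made up 3 of the 7 that were higher in pot1b than in WT under mock. Under Zeocin they made up 2 of the 6 higher and 1 of the 2 lower. The annotation places 10 such copies beside 8 members, and 8 copies were tested. LP1, the lipid-transfer gene next to LTP2, had 163, 175 and 205 CPM in pot1b Zeocin, against 270.0, 275 and 301 CPM in pot1b mock.

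The WT libraries of LP1 had 144, 172 and 187 CPM under Zeocin and 220.2, 226 and 245 CPM under mock. Its Zeocin change was -0.70 (SE 0.10) in pot1b and -0.50 (SE 0.10) in WT on the log2 scale (edgeR adjusted p = 3.8e-05 and 0.0019). AER, an alkenal reductase next to AT5G16980, fell in both genotypes too. It had 341, 342 and 303 CPM in pot1b Zeocin, 469, 428 and 420.4 CPM in pot1b mock, 283, 251 and 222 CPM in WT Zeocin and 347, 345 and 346 CPM in WT mock. Its log2 change was -0.48 (SE 0.08) in pot1b and -0.51 (SE 0.08) in WT (edgeR adjusted p = 3.8e-04 and 2.2e-04), too small for the ratio that defines the members.

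CSLB04, beside CSLB03, was lower with Zeocin in pot1b, with a change of -1.15 (SE 0.22) on the log2 scale (edgeR adjusted p = 9.6e-04), while in WT the change was -0.53 and not called (edgeR adjusted p = 0.2). TI2, beside TI1, was lower with Zeocin in WT, with a change of -0.63 (SE 0.18) (edgeR adjusted p = 0.043), and in pot1b the change was -0.23, not called (edgeR adjusted p = 0.54). Not all copies moved with their member. BGLU16, beside DIN2, had log2 changes of 0.02 in pot1b and -0.09 in WT, and MAM1, which like IMS2 extends the methionine chain, 0.23 and 0.20, none of them called. Reads of copies can be shared: of the exon stretches of 50 bases, 6.14% of AT5G16980, 3.68% of CSLB03 and 0.63% of ARGAH2 occur elsewhere in the genome, while those of LTP2 and TI1 are all single.

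**Figure D5:**
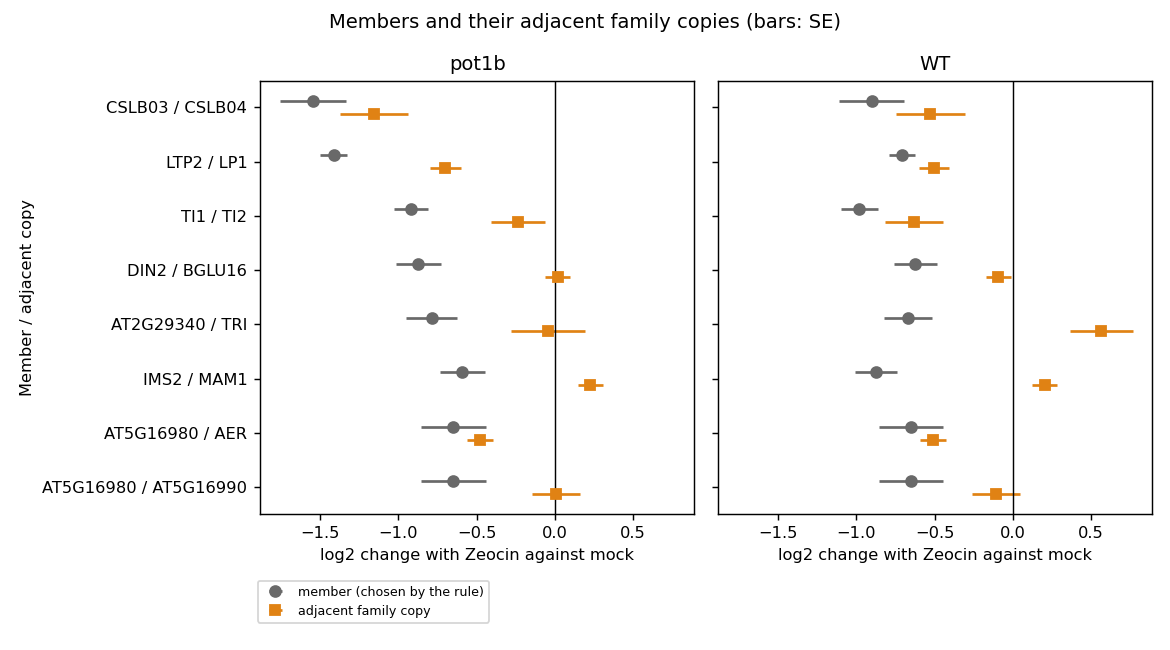
Log2 change with Zeocin of a member and of the tested copy or copies of its family next to it, with standard errors of the edgeR fit, in pot1b (left panel) and WT (right panel). LP1 and AER lie below 0 in both panels, while BGLU16 and AT5G16990 lie near 0.

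Relatives, adjacent ones included, were counted in 21 lists of pathways and families, of which 5 hold a member and 16 hold none. Among the 16, the list of aliphatic glucosinolate synthesis was drawn up without IMS2, so that these counts depend on how the lists were made. Of 53 other lipid-transfer-type genes tested, 10 were lower and 5 higher with Zeocin in pot1b, and 3 were lower and 0 higher in WT. LP1, described above as the neighbour of LTP2, is among those lower in each genotype and is no separate observation. Of 17 other expansins, 2 were lower in pot1b and 1 in WT, with 0 higher in either. Of 15 other berberine-bridge-type oxidases, 3 were lower and 1 higher in pot1b, and 1 was lower and 3 higher in WT. Of 37 other glycine-rich proteins, 1 was lower in pot1b and 8 in WT, with 0 higher. Of 144 other cytochrome P450 genes, 20 were lower and 11 higher in pot1b, and 6 were lower and 14 higher in WT. The background for these counts is 3.0% of genes lower and 3.7% higher in pot1b, and 2.65% lower and 3.34% higher in WT. Between the genotypes under mock, 13 of the 53 other lipid-transfer-type genes, LP1 among them, were higher in pot1b and 2 lower. The counts were 2 higher and 0 lower for the expansins, 2 and 1 for the berberine-bridge-type oxidases, 0 and 3 for the glycine-rich proteins, and 25 and 7 for the P450 genes. Of all genes, 7.25% were higher and 5.83% lower in that comparison.

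Cell type markers moved with some of these results, and their part in the results was not tested. The summed level of 5 root hair genes was 6.6 to 9.9 CPM in pot1b Zeocin, 10.1 to 13.1 in pot1b mock, 7.1 to 9.2 in WT Zeocin and 10.8 to 12.6 in WT mock. Only 3 of the 5 were abundant enough to test, and with Zeocin 1 of them, EXPA18, was called lower in WT and 0 in pot1b. The sum of 7 root identity genes, most of which is PYK10, did not follow Zeocin. It was 1536.6 to 1695.1 CPM in pot1b Zeocin and 1555.4 to 1670.8 in pot1b mock. In WT it was 918.3 to 1021.4 CPM under Zeocin and 950.5 to 1006.1 under mock. Between the genotypes and with Zeocin the sum mainly follows PYK10. Of the 6 root identity genes tested, PYK10 was called higher in pot1b under both treatments and SCR lower under Zeocin, and the median log2 difference was 0.10 under mock and -0.08 under Zeocin. Without PYK10 the others summed to 36.7 to 45.2 CPM in pot1b Zeocin and 37.4 to 47.2 in pot1b mock, where the treatments overlapped. In WT they summed to 47.0 to 60.2 CPM under Zeocin and 41.0 to 44.7 under mock, with every Zeocin library above every mock library. The sum of 5 shoot and leaf genes ran from 15654.2 to 15759.7 CPM in pot1b Zeocin, 16560.1 to 17994.5 in pot1b mock, 12670.1 to 14677.3 in WT Zeocin and 12388.0 to 13408.8 in WT mock. Of these 5 genes, 3 were called higher in pot1b under mock and 1 under Zeocin, with 0 lower, and with Zeocin 2 were lower in pot1b and 0 in WT. None of these genes was at 0 in a group. The members varied somewhat more between replicates than other genes at the mock minimum did, by median: the coefficient of variation was 10.2% for the members, against 8.87% for those genes, in pot1b Zeocin, 9.96% against 7.71% in pot1b mock, 14.2% against 11.5% in WT Zeocin and 9.28% against 7.56% in WT mock.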

How the data were processed

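Total RNA of 12 seedling libraries was depleted of ribosomal RNA and prepared with a stranded kit, per the labels' protocols. Per the submitters' processing notes, the authors used Trim Galore, HISAT2, featureCounts and limma with the build TAIR10. Versions and the strand setting are not given in the sources used here. The deposited values are raw counts per gene. Groups and replicate numbers came from the sample titles.

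Levels are CPM over the ids AT1G to AT5G, as the rule asks. The tests used edgeR 4.0.16 (R 4.3.3) on all 34262 features, of which filterByExpr with a minimum count of 10 kept 19596. After TMM scaling, a single model of the 4 groups over the 12 libraries gave robust quasi-likelihood F tests with 8 residual degrees of freedom. Adjusted p is Benjamini-Hochberg over all genes of a contrast, and a gene was called under 0.05. SE was computed from the fold change and the F value. All 26 members passed the filter. The script was tested on simulated data. Summed levels were compared by exact permutation tests. Alternatives were DESeq2 1.42.0, its size factors, limma-voom (limma 3.58.1), no filter, nuclear ids only, a replicate block, leaving out libraries, and other thresholds of the rule. Leaving out both pot1b libraries numbered 3 was chosen after seeing the data.

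Symbols, overlaps, neighbours and sequences came from TAIR10.1, matched by id; 32548 ids matched, and no coordinates passed between builds. The members, role groups, copies and lists were chosen with earlier results of these data known. The text names the 25 members with the lowest mean ratio, the called members, the genes nearest the threshold and the 3 dropped genes, as the rule for named genes asks. AT5G16980 was added so that every member is named, and adjacent copies are named by position. Precision is limited by 3 libraries per group and by counting error of the low members.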

Additional observations from a re-analysis of the deposited data

Results flagged for a closer look

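LTP2 was flagged because its Zeocin effect differed between the genotypes by a test of the difference itself. The log2 effect of Zeocin was -1.41 in pot1b and -0.71 in WT, a difference of -0.704 (edgeR adjusted p = 0.0046). Its levels were 147 ± 15.3 CPM in pot1b Zeocin, 376 ± 3.84 CPM in pot1b mock, 169 ± 8.41 CPM in WT Zeocin and 265 ± 24.2 CPM in WT mock (SD, n = 3 each). LP1, the lipid-transfer gene beside it, had an interaction of -0.20 (SE 0.14) on the log2 scale that was not called (edgeR adjusted p = 0.68). The groups hold 3 libraries, too few for the check of single samples that lie far from their group.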

How the results depend on the processing

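Of the 26 calls of single members between genotypes or for the interaction, 16 held under all 19 alternatives run, 10 were lost under at least 1, and 0 changed direction. Lost under mock were the calls of AT3G56290, AT4G35720, AT5G01740, CSLB03, CYCP2;1 and HB-12, and under Zeocin those of ARGAH2, AT1G30760, CYCP2;1 and EXPA10, with the highest adjusted p between 0.07 for CYCP2;1 under Zeocin and 0.23 for AT4G35720 under mock. DESeq2 called 9 members higher and 2 lower in pot1b under mock, in place of 12 and 4. It lost the calls of AT3G56290, AT4G35720, AT5G01740, CSLB03 and HB-12 under mock, and those of ARGAH2 and AT1G30760 under Zeocin. Limma-voom lost the call of AT1G30760 under Zeocin. It called 44 genes higher and 47 lower for the interaction, in place of 74 and 73. With both pot1b libraries numbered 3 left out, 677 genes were called lower under mock in place of 1142, 850 higher and 444 lower under Zeocin in place of 1284 and 884, and 35 higher and 30 lower for the interaction. The causes were not tested. Leaving out each library in turn gave 9 to 12 members higher and 1 to 6 lower under mock, 5 to 8 higher and 1 to 4 lower under Zeocin, and 0 higher and 1 lower for the interaction in each of the 12 fits. Over all genes it gave 938 to 1883 higher and 657 to 1853 lower under mock, 822 to 1320 higher and 417 to 984 lower under Zeocin, and 22 to 251 higher and 32 to 186 lower for the interaction. All 6 of these upper ends came without WT Zeocin replicate 1. The rule gave 6 genes at a ratio of 0.6, 93 at 0.8 and 19 at a mock minimum of 10 CPM. Leaving out each library gave 26 to 36. On TMM-scaled CPM over all features it gave 29, of which 19 were members. There the total included the chloroplast genes, so that the minimum of 5 CPM was stricter for nuclear genes than in the rule itself. How much of the change came from this was not tested.

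The groups share replicate numbers, but the labels do not say what a number marks. Of 18 pairs of same-numbered libraries, 12 had deviations from the group means that correlated above 0.1 (range -0.02 to 0.42), and 10 of 12 libraries correlated best with a library of their own number, a hint from the data and not the design. With the replicate block, 4 members were lower in pot1b under Zeocin, 220 genes were higher and 159 lower for the interaction, and 858 genes were lower with Zeocin in WT in place of 519. The LTP2 interaction was -0.71 with the block (edgeR adjusted p = 0.00015).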
